A study of Mus musculus with 6 samples.

Results

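The 10 genes described here, chosen by gene name, are core parts of the circadian clock and were each found once among the 51888 genes of the count tables. They are the activators Arntl (also called Bmal1), Clock and Npas2, the repressors Per1, Per2, Per3, Nr1d1 and Nr1d2, and the output factors Dbp and Tef. They were measured by RNA sequencing of whole hearts from 3 control mice, labelled L/L and Elac2 +/+, and 3 knockout mice, labelled L/L, cre and Elac2 -/-, all on a C57BL/6 background. In the knockouts a loxP-flanked exon of Elac2, the gene of the tRNA-trimming enzyme RNase Z, was removed by cre driven from a muscle creatine kinase promoter. Heart cells that do not use this promoter therefore keep the gene, and no group carries cre alone. Age, sex and the time of day at which hearts were collected are not given in the labels used here. Genotype and collection time therefore cannot be told apart.

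The clock is a feedback loop present in nearly every cell, heart muscle cells included. ARNTL pairs with CLOCK or with its relative NPAS2 and activates genes that carry an E-box, among them the Per, Cry and Nr1d genes, Dbp and Tef. PER and CRY proteins then block the pair, and the nuclear receptors NR1D1 and NR1D2 (REV-ERB alpha and beta) repress Arntl and Npas2 by competing with ROR proteins for a shared site, the RORE. In tissues kept on a day and night cycle, transcripts of Arntl and Npas2 are high when those of Dbp, Nr1d1 and Per3 are low, and the reverse. One heart collected at a single time therefore shows both arms of the loop at one phase.

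Promoter sequences are shown for the members whose windows carried a matched clock element, a kind of site that clock factors bind. Windows run from 250 bases before to 50 bases after each RefSeq start site (GRCm38.p6) and were found for 9 of the 10 genes. They were searched on both strands for the E-box CACGTG, the D-box TTATGTAA or TTACGTAA (the site of DBP, TEF and HLF) and the RORE core, AANT followed directly by AGGTCA. Capitals mark the match, and each sequence reads 5′ to 3′ along the gene's strand.
Arntl, chr7:113207261-113207560, plus strand, RORE: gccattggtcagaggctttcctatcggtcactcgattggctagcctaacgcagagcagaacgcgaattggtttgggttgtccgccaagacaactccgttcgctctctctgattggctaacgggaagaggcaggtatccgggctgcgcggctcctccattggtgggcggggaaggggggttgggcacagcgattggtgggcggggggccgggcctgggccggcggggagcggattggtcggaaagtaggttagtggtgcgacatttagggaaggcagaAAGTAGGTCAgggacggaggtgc
Per1, chr11:69098699-69098998, plus strand, E-box: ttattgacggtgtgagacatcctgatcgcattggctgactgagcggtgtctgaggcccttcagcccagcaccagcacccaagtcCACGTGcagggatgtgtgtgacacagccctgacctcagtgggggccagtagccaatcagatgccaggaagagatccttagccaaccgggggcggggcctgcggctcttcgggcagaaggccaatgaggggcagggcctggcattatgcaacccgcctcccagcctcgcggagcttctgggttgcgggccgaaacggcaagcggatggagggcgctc
Per3, chr4:151044616-151044915, minus strand, D-boxes: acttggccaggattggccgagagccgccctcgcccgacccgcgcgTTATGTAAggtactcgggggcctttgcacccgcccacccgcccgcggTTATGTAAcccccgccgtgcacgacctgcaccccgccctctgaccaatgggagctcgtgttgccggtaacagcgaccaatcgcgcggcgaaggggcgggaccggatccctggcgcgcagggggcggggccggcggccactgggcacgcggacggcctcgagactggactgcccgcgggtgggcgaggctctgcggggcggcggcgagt
Tef, chr15:81802423-81802722, plus strand, E-box: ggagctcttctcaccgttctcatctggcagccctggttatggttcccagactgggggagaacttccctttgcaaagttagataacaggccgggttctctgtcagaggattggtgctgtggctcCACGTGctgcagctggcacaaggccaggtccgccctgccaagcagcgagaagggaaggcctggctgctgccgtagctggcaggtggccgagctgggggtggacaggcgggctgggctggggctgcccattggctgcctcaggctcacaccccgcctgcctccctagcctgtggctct

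An E-box was found in windows of 2 of the 9 genes, Per1 and Tef, and Tef carried one in each of its 2 windows. The 9 genes had 14 windows, of which 3 held an E-box, 1 held the D-box and 1 held the RORE core. Of all 32851 RefSeq windows of this length, 7.15% held an E-box. The D-box was matched in Per3 only, at -205 and -158 from the start site, and 1.06% of all windows held one. The RORE core was matched in Arntl only, 27 bases downstream of the start site of the second window, and 0.219% of all windows held it. A match describes these letters only, and distal elements lie outside the windows.

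Libraries held 9850100 to 14461110 counts, and levels are given as CPM, counts scaled to a common library size after TMM normalisation. Elac2 was at 13.01 to 15.05 CPM in controls and 5.36 to 6.52 CPM in knockouts, lower in each knockout library. Mitochondrial-encoded genes took 49.3% to 61.1% of counts in controls and 33.3% to 36.7% in knockouts. Control 2 stood apart in atrial markers, with a summed level of 347 CPM against 1417 and 1469 CPM in the other controls. Knockout 1 stood apart in fibroblast markers, with a summed level of 2530 CPM against 1798 and 1527 CPM in the other knockouts. The fold changes of the 10 clock genes, the counts of genes called in the clock and signal lists and the difference between the arms were therefore also computed without each library in turn.

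All 10 genes passed the filter on low counts. Of them 3 passed the test, edgeR's quasi-likelihood test with Benjamini-Hochberg adjustment over all 14302 tested genes. Clock was higher in knockouts, and Per3 and Nr1d1 were lower. Over all tested genes 36.5% passed, so a count of 3 of 10 lies near the background and is not a result about the clock genes as a group. The median log2 fold change of the 10 genes was -0.54, beside -0.01 over all tested genes. With scaling by library size alone these medians were 0.15 and 0.68. Without control 1, control 2, control 3 or knockout 3 the count of clock genes called was 1, Nr1d1, and without knockout 2 it was 7. Over all tested genes, these fits in turn called 4257 of 14625, 3756 of 14905, 3959 of 14855, 4713 of 14741 and 3694 of 14540. The groups did not overlap for 4 of the 10 genes (Clock, Npas2, Per3 and Nr1d1), and for 50.6% of all tested genes.

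**Figure D1:**
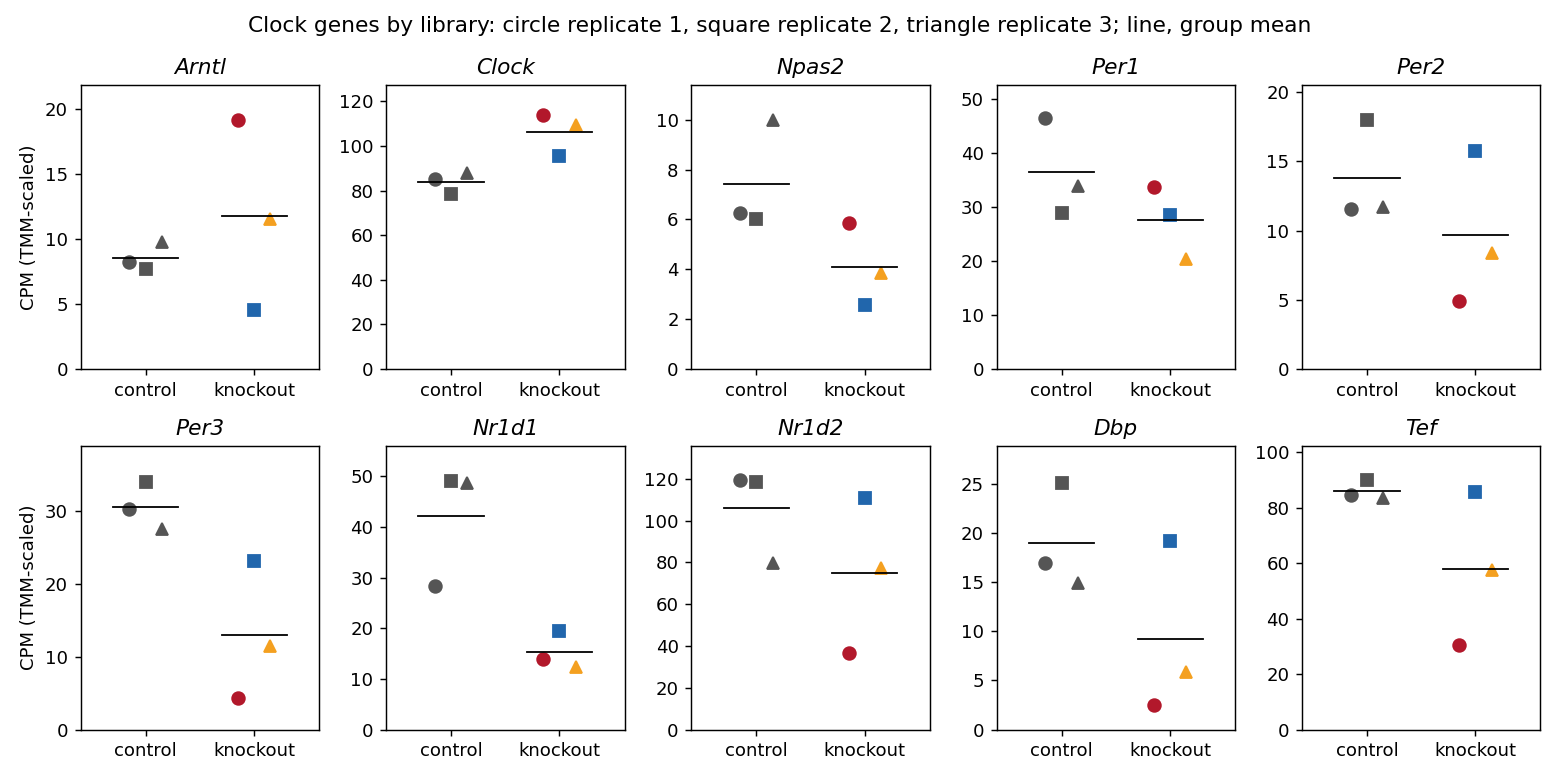
CPM of each clock gene in each library (vertical axes start at 0), with circles, squares and triangles for replicates 1, 2 and 3 and a line at each group mean. The knockout libraries of Arntl ran from 4.53 to 19.1 CPM and those of Dbp from 2.49 to 19.2 CPM, against 7.67 to 9.76 and 14.9 to 25.1 CPM in controls.

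Nr1d1 (ENSMUSG00000020889.11, chromosome 11, 98767932 to 98775333, minus strand, mm10), the repressor of Arntl, had the lowest adjusted p of the 10 genes. Its level was 28.4, 49.1 and 48.8 CPM in controls 1, 2 and 3 and 13.9, 19.5 and 12.3 CPM in knockouts 1, 2 and 3. All 3 knockouts lay below all 3 controls. The mean dropped from 42.1 ± 11.8 to 15.2 ± 3.78 CPM (SD, n = 3 each). On the log2 scale this was -1.45 with an SE of 0.23 (adjusted p = 1.17e-03, edgeR). This was the only member called in each of the 16 alternatives, which included 6 that left out 1 library, with values from -1.67 to -0.72. The 3' end of Nr1d1 overlaps that of Thra, a thyroid hormone receptor gene on the opposite strand, over 263 exonic bases or 8.55% of its exon length. Whether counting used strand is not given, and Thra itself was lower by a smaller amount, at -0.43 (SE 0.13, adjusted p = 0.0300, edgeR).

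Nr1d2, the second REV-ERB gene, was at 119, 118 and 79.9 CPM in controls and 36.6, 111 and 77.5 CPM in knockouts. Knockout 2 lay within the control range and knockout 1 far below it. The value of -0.50 (SE 0.33, adjusted p = 0.258, edgeR) did not pass the test. Nr1d1 was lower relative to Nr1d2 in knockouts 2 and 3, at 0.176 and 0.159 of its level, but the ratio of 0.380 in knockout 1 lay inside the control range of 0.238 to 0.610. These are ratios of CPM without length correction.

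Among the period genes, whose proteins close the negative loop, Per3 (chromosome 4, 151003652 to 151044665, minus strand) was at 30.2, 33.9 and 27.5 CPM in controls. It was at 4.35, 23.2 and 11.5 CPM in knockouts 1, 2 and 3. The groups did not overlap, and the knockouts spread over a 5.32-fold range between libraries 1 and 2. The log2 fold change of Per3 was -1.23 with an SE of 0.43 (adjusted p = 0.0487, edgeR). That call is at the edge of the threshold. It was lost without control 1, 2 or 3 or knockout 3 (adjusted p = 0.0915 to 0.126), with DESeq2 (adjusted p = 0.165) and with a robust edgeR fit (adjusted p = 0.166). It was also lost with TMM computed without mitochondrial genes (adjusted p = 0.0504) and with library size alone, where the value was -0.54 (adjusted p = 0.151).

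Per2 was at 11.6, 18 and 11.7 CPM in controls and at 4.94, 15.7 and 8.37 CPM in knockouts. Knockout 2 again lay within the control range and the other knockouts below it. Its value was -0.50 (SE 0.36, adjusted p = 0.301, edgeR). Per1, which also responds directly to glucocorticoids and to cyclic AMP, was at 46.5, 28.9 and 33.8 CPM in controls and at 33.7, 28.5 and 20.4 CPM in knockouts. Here knockout 3 was lowest and knockout 1 lay within the control range, unlike in the other period genes. Its value was -0.40 (SE 0.21, adjusted p = 0.158, edgeR). With scaling by library size alone, both turned positive, Per1 to 0.26 and Per2 to 0.20, each below the 0.68 of all tested genes.

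The output factors Dbp and Tef, relatives that bind the D-box, showed the same order among knockouts as Per2 and Per3. That order, with knockout 1 lowest and knockout 2 highest, held for 20.5% of all tested genes. Dbp (chromosome 7, 45705088 to 45710203, plus strand) was at 16.9, 25.1 and 14.9 CPM in controls and at 2.49, 19.2 and 5.88 CPM in knockouts 1, 2 and 3. Knockout 2 was within the control range, and knockout 1 was 7.71-fold below knockout 2. The value of -1.03 had an SE of 0.55 and did not pass the test (adjusted p = 0.169, edgeR). Without knockout 2 it was -2.22 (adjusted p = 3.33e-03, edgeR). Exons of Sphk2, on the opposite strand, cover 18.01% of the exon length of Dbp, and Sphk2 was at 8.25 to 11.4 CPM in controls and 8.77 to 12.2 CPM in knockouts.

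Tef was at 84.5, 90.1 and 83.5 CPM in controls, a range of 1.079-fold. In knockouts it was at 30.6, 85.5 and 57.6 CPM. Knockout 2 lay within the narrow control range and the others well below it. Its value was -0.57 (SE 0.29, adjusted p = 0.143, edgeR), or -0.97 without knockout 2 (adjusted p = 0.0192).

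In the activator arm, Arntl (chromosome 7, 113207465 to 113314126, plus strand) was at 8.20, 7.67 and 9.76 CPM in controls and at 19.1, 4.53 and 11.5 CPM in knockouts 1, 2 and 3. Knockouts 1 and 3 lay above each control and knockout 2 below each control. The group value of 0.46 (SE 0.41, adjusted p = 0.399, edgeR) thus averages libraries on both sides of the controls. It turned to -0.12 without knockout 1 and rose to 0.86 without knockout 2 (adjusted p = 0.0274).

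Clock (chromosome 5, 76209868 to 76304792, minus strand), whose transcript cycles weakly in most tissues, was at 85.1, 78.5 and 88.0 CPM in controls. In knockouts it was at 114, 95.6 and 109 CPM, each above each control. Its log2 fold change was 0.34 with an SE of 0.12 (adjusted p = 0.0456, edgeR). The direction held in each of the 16 alternatives, with values from 0.29 to 1.04. The call was lost in 5 of the 6 fits that left out 1 library, being kept without knockout 2. It was also lost with the stricter filter (adjusted p = 0.0573, edgeR) and with the replicate number as a block (adjusted p = 0.0895, edgeR).

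Npas2 (chromosome 1, 39193731 to 39363236, plus strand), which can stand in for Clock, was at 6.24, 6.00 and 9.99 CPM in controls. It was at 5.84, 2.55 and 3.86 CPM in knockouts. All knockouts lay below all controls, although knockout 1 did so only narrowly. The value of -0.84 (SE 0.31) just missed the threshold (adjusted p = 0.0574, edgeR), passed it without knockout 1 at -1.21 (adjusted p = 5.76e-03), and was called in the authors' deposited table (adjusted p = 0.0498). Arntl and Npas2 are both repressed by the REV-ERB proteins. The ratio of Arntl to Npas2 within a library was one of several ratios computed. It was 1.31, 1.28 and 0.977 in controls and 3.27, 1.77 and 2.98 in knockouts 1, 2 and 3, without overlap. Levels of single genes did not overlap for 50.6% of all tested genes, and the difference in this ratio was not tested.

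The authors' deposited table called 27.6% of the 16267 genes with an adjusted p and 3 of these 10: Clock (adjusted p = 0.0358), Npas2 and Nr1d1 (adjusted p = 3.95e-08). All 10 values there had the same sign as in the edgeR fit. Per3, called with edgeR, had an adjusted p of 0.165 in that table.

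**Figure D2:**
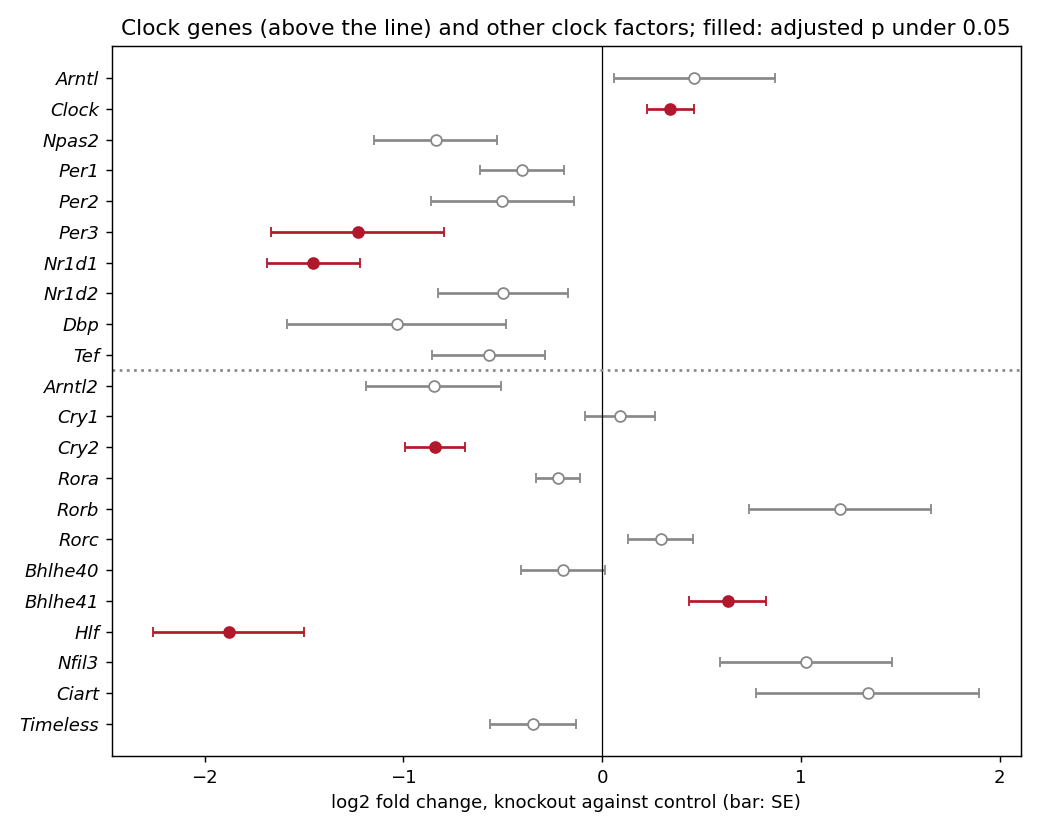
Log2 fold change of knockout against control with its SE for the 10 clock genes and 12 other clock factors; filled points passed the test at an adjusted p under 0.05. Nr1d1 at -1.45 and Hlf at -1.88 were the lowest values, and the SE was widest for Dbp and Ciart.

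Per length of exon, Nr1d2 was the most abundant member in controls, at 19.6 ± 4.15 CPM per kb, followed by Nr1d1 at 13.7 ± 3.85, Tef at 10.9 ± 0.453, Per1 at 6.46 ± 1.61, Dbp at 6.34 ± 1.81 and Clock at 6.11 ± 0.358 (SD, n = 3 each). Per3 at 3.18 ± 0.333, Per2 at 2.35 ± 0.626, Npas2 at 1.55 ± 0.467 and Arntl at 1.14 ± 0.144 CPM per kb were lowest. In this order the control ranges of neighbours overlapped for each pair except Tef and Per1, and Clock and Per3. In knockouts the mean of Nr1d2 led again at 13.9 ± 6.87 CPM per kb, now followed by Clock at 7.75 ± 0.695 and Tef at 7.36 ± 3.49, with Nr1d1 at 4.95 ± 1.23. The knockout ranges overlapped, at 6.77 to 20.5 for Nr1d2, 6.97 to 8.30 for Clock and 3.89 to 10.9 CPM per kb for Tef. This order of means therefore did not hold in each knockout library.

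The spread between knockout hearts was the most marked feature of these genes. On the log2 scale the SD among knockouts exceeded that among controls for 9 of the 10 genes, all but Nr1d1. It did so for 53.5% of all tested genes. The median SD of the 10 genes was 0.34 in controls and 0.78 in knockouts, against 0.19 and 0.20 over all tested genes. The biological coefficient of variation from the edgeR fit, which sets counting noise aside, had a median of 0.270 for the 10 genes and 0.147 for all tested genes. Dbp at 0.467 and Per3 at 0.369 were above 99.6% and 98.9% of tested genes, while Clock at 0.128 was below the median.

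Knockouts 1 and 2, a pair chosen after the values were seen, differed by at least 2-fold in 7 of the 10 genes, as did 4.27% of all tested genes and 2.45% of those with a mean of at least 5 CPM. Arntl was 4.22-fold and Npas2 2.28-fold higher in knockout 1. Dbp was 7.71-fold, Per3 5.32-fold, Per2 3.19-fold, Nr1d2 3.03-fold and Tef 2.79-fold higher in knockout 2. Knockout 3 lay between them for these 7 genes and for Clock. Over all tested genes, it lay between with knockout 2 highest in 20.5%, and with knockout 1 highest in 15.4%. Among controls the highest library was at most 1.73-fold above the lowest, for Nr1d1.

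Set against the control range, knockout 3 lay below it for 7 of the 7 repressor and output genes. Knockout 1 lay below it for 6 of 7, all but Per1. Knockout 2 lay below it for 3, Per1, Per3 and Nr1d1, and within it for 4. No knockout lay above the control range for a repressor or output gene. In the activator arm each knockout lay above it for Clock and below it for Npas2. For 50.6% of all tested genes, all 3 knockouts lay outside the control range on the same side. A single knockout therefore lay outside it for at least that share, and these counts are not a result about the clock genes as a group.

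**Figure D3:**
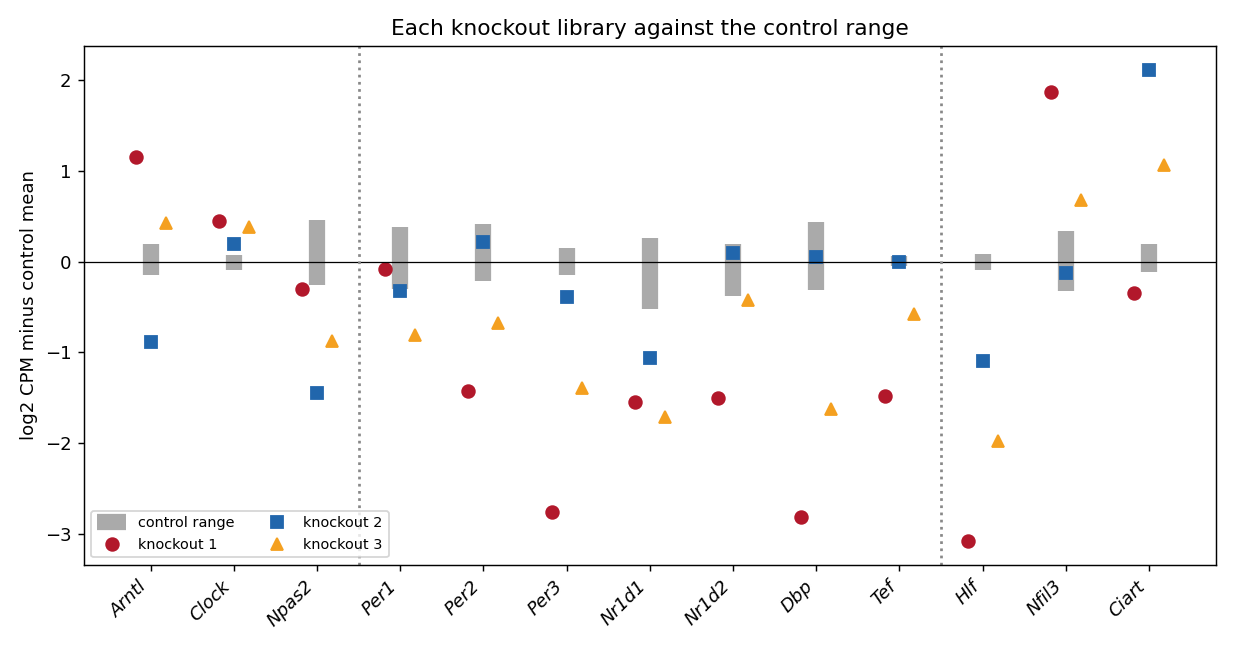
Log2 CPM of each knockout library minus the control mean for the 10 clock genes and for Hlf, Nfil3 and Ciart; grey bars span the 3 controls. Knockout 1 (circles) is high for Arntl and Nfil3 and low for Per3, Dbp and Hlf, knockout 2 (squares) is near the controls for Per2, Nr1d2, Dbp and Tef, and all 3 knockouts are below the controls for Nr1d1, Npas2, Per3 and Hlf.

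To read both arms at once, the mean log2 CPM of the 7 repressor and output genes was subtracted from that of the 3 activators in each library. This difference does not depend on the scaling of a library beyond its small prior count. It was -1.13, -1.44 and -0.73 in controls and 0.996, -1.61 and -0.09 in knockouts 1, 2 and 3. The knockouts thus lay on both sides of the controls. Controls averaged -1.10 ± 0.36 and knockouts -0.23 ± 1.31 (SD, n = 3 each), so the group difference of 0.86 was smaller than the SD of the knockouts. It was 0.25 without knockout 1 and 1.55 without knockout 2. No test was made, since the genes were chosen with earlier results of these data known. The repressor and output arm averaged 5.23 ± 0.16 in controls and 4.26 ± 0.73 in knockouts, a change of -0.96. The activators averaged 4.13 ± 0.22 and 4.03 ± 0.58, a change of -0.10. The activator change was smaller than the SD of either group. Its members went both ways, with edgeR values of 0.46 for Arntl, 0.34 for Clock and -0.84 for Npas2. Each arm mean, unlike the difference, also depends on the scaling. With TMM the group difference thus came mainly from the repressor and output arm.

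The ratio of Arntl to Dbp, both CPM of the same library, spanned 0.305 to 0.656 in controls and was 7.66, 0.236 and 1.96 in knockouts 1, 2 and 3. The ratio of Arntl to Nr1d1 was 0.288, 0.156 and 0.20 in controls and 1.37, 0.232 and 0.935 in knockouts. For both ratios knockouts 1 and 3 were above each control. Knockout 2 was below each control for the first ratio and within the control range for the second.

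**Figure D4:**
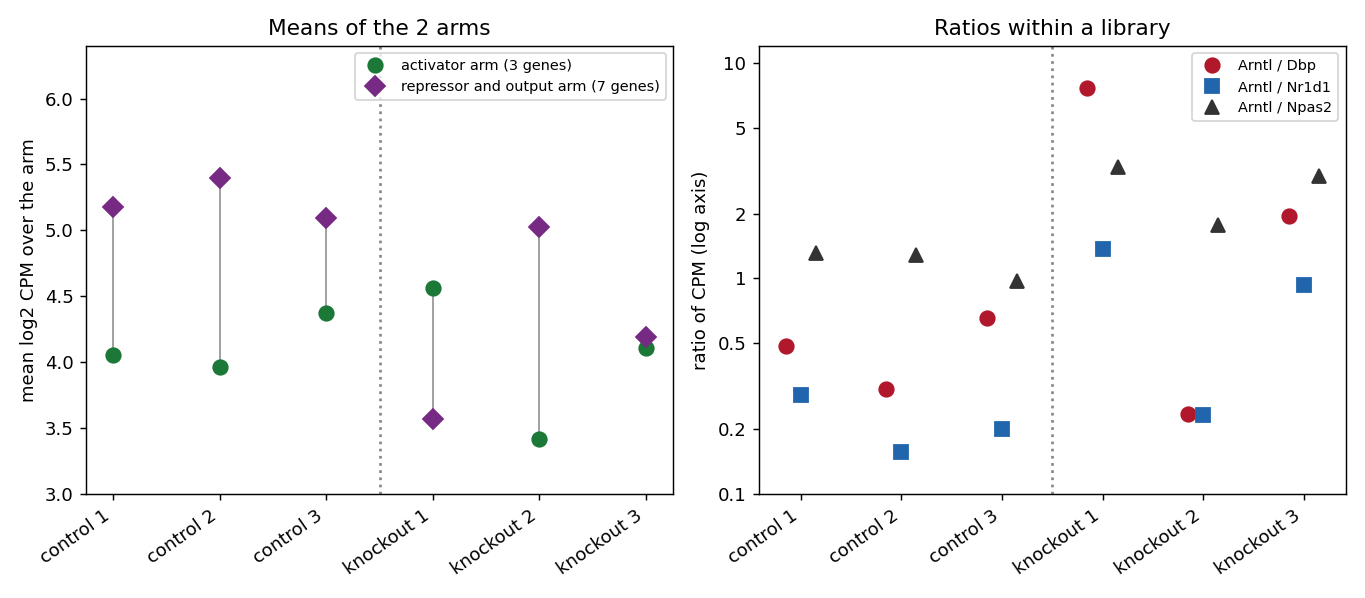
Left, mean log2 CPM of the activator arm (circles) and of the repressor and output arm (diamonds) in each library; right, ratios of Arntl to Dbp, Nr1d1 and Npas2 on a log axis. The activator mean exceeds the other arm in knockout 1 only, and the gap in knockout 2, at -1.61, is the widest of the 6 libraries.

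Of 12 other clock transcription factors and repressors, 1 was higher and 2 were lower, with a median log2 fold change of -0.05. Hlf, the third factor of the Dbp and Tef family, was at 12.04, 13.6 and 12.9 CPM in controls and 1.38, 5.92 and 3.14 CPM in knockouts 1, 2 and 3. It fell by 1.88 (SE 0.38, adjusted p = 4.02e-03, edgeR), and its knockouts stood in the same order as those of Dbp and Tef. Of all tested genes 20.5% had that order. The repressor Cry2 fell by 0.84 (SE 0.15, adjusted p = 2.06e-03), from 17.9 ± 2.05 to 9.91 ± 1.15 CPM, with no knockout above 11.2 CPM. Its relative Cry1 was at 0.09. Bhlhe41, which competes for E-boxes, rose by 0.63 (SE 0.20, adjusted p = 0.0295). Without control 1, and without control 2, no gene of this list was called higher. The number higher was 4 without knockout 1.

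Outside the rule for named genes, Nfil3 and Ciart were singled out after their values were seen. Nfil3, a D-box repressor with Arntl-like timing, was at 6.00 to 9.55 CPM in controls and 28.0, 6.91 and 12.2 CPM in knockouts 1, 2 and 3. Ciart, an E-box-driven repressor, was at 1.58 to 2.0 CPM in controls and 1.33, 8.01 and 3.78 CPM in knockouts. Among the knockouts, Nfil3 thus stood in the order of Arntl, and Ciart in the order of Dbp. Across the groups Ciart did not follow Dbp. Ciart exceeded the controls in knockouts 2 and 3, where Dbp was at 19.2 and 5.88 CPM against 14.9 to 25.1 CPM in controls. Neither Nfil3 nor Ciart passed the test, with 1.03 (adjusted p = 0.0892, edgeR) and 1.34 (adjusted p = 0.0874, edgeR).

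Of 12 kinases, ubiquitin ligases and related enzymes that act on clock proteins, 3 were higher and 2 lower (median 0.22). Usp2, a deubiquitinase and clock output, fell by 0.96 (SE 0.13, adjusted p = 4.68e-04, edgeR), with knockouts at 29.1, 29.9 and 27.6 CPM against 50.03 to 66.3 CPM in controls. Its knockouts lay within a narrow range, unlike those of Dbp. Prkaa2, a catalytic subunit of the AMP-activated kinase, fell by 0.65, and Fbxw11, a ubiquitin ligase subunit for PER proteins, rose by 0.63. Fbxl21 was higher at 2.37 but stayed under 1 CPM in each library. Without control 1 or knockout 2 the number higher was 1, without control 2, control 3 or knockout 3 it was 2, and without knockout 1 it was 5.

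Of 12 genes known as clock outputs in heart or other tissues, 3 were higher and 6 lower (median -0.51). The transcription factor gene Klf15 fell by 1.47 (SE 0.16), Kcnip2, a subunit of the transient outward potassium channel, by 2.82 (SE 0.34), the transferrin receptor gene Tfrc by 1.69 (SE 0.26) and the kinase subunit gene Pik3r1 by 0.96 (SE 0.17). The number higher was 1 without control 3 or knockout 2, and 2 without control 1, control 2 or knockout 3. Of the 12 genes Wee1, a cell cycle kinase gene named after its values were seen, had its knockouts in the order of Dbp. It was at 5.31, 8.71 and 6.84 CPM in knockouts 1, 2 and 3, an order seen in 20.5% of all tested genes. The other genes had other orders, and Klf15 was at 13.2, 11.4 and 15.5 CPM.

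Genes that respond to signals that reset peripheral clocks were read in 3 further lists. The signals themselves were not measured. Of 10 glucocorticoid-responsive genes, Per1 among them, 1 was higher and 2 were lower (median -0.32): Cdkn1a at 1.68, Zbtb16 at -0.71 and Mt1 at -0.78. Fkbp5, a sensitive glucocorticoid target added outside the rule for named genes, was at 25.4 to 40.6 CPM in controls and 28.5 to 38.9 CPM in knockouts. Without control 1 the list had 0 higher and 3 lower, without control 2 0 and 2, and without knockout 1 or knockout 3 1 and 3.

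Of 8 temperature-responsive genes 6 were higher and 0 lower (median 0.79), led by Hsp90aa1 at 1.41, the cold-induced Rbm3 at 0.71, Hspa8 at 0.87 and Hspa1a at 2.41. The 2 that did not pass were Cirbp, cold-induced like Rbm3, and the heat shock gene Hsph1, named because they were the exceptions. Cirbp was at 13.7, 15.1 and 17.1 CPM in controls and 7.91, 13.2 and 11.2 CPM in knockouts, with a value of -0.51 (adjusted p = 0.0650, edgeR). Hsph1 was at 16.1 to 16.6 CPM in controls and 28.3, 11.4 and 10.9 CPM in knockouts. The count was 4 higher without control 3, and 4 higher and 1 lower without knockout 2. Of 5 fasting-responsive genes 0 were higher and 2 were lower (median -0.30), Pdk4 at -1.41 and Ucp3 at -2.22, and this count was the same without each library in turn. Beside these counts, 18.7% of all tested genes were called higher and 17.8% lower.

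Summed levels of some cell type marker lists differed between the groups. In bulk tissue fewer cells of a type and less RNA per cell cannot be told apart. Over all tested genes 18.7% were called higher and 17.8% lower, and the groups did not overlap for 50.6%. The marker counts are to be read beside these shares, and no list was tested as a set. The 8 cardiomyocyte markers had 0 higher and 3 lower, Ryr2, Myh6 and Actc1, and summed to 90076 to 93082 CPM in controls and 61942 to 63157 CPM in knockouts. The 7 endothelial markers had 4 lower and summed to 533 to 604 CPM in controls and 395 to 461 CPM in knockouts, and the 6 smooth muscle and pericyte markers had 1 higher and 2 lower and summed to 767 to 978 and 501 to 558 CPM. The 7 fibroblast markers had 0 called and summed to 1042 to 1593 CPM in controls and 1527 to 2530 CPM in knockouts. Of 7 leukocyte markers 5 were tested and 1, Lyz2, was higher; their sum was 100.01 to 123 CPM in controls and 127 to 150 CPM in knockouts, and the T cell gene Cd3e had 0 to 2 counts in each library. The 5 atrial markers had 1 higher, Nppa, and summed to 347 to 1469 and 3374 to 4845 CPM. Their median log2 fold change was -0.34, so the higher sum was not shared by most of them.

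Among knockouts, the library with the highest fibroblast and leukocyte sums was knockout 1, the one with the highest Arntl and lowest Dbp. Knockout 2, with the lowest Arntl, had 7.37 CPM of the atrial gene Bmp10 against 146 and 84.8 CPM in knockouts 1 and 3. The sum of the 5 atrial markers went the other way among the knockouts. It was 4845 CPM in knockout 2 against 3374 and 3399 CPM in knockouts 1 and 3. The cardiomyocyte sum differed little among them. The part of cell makeup in the clock gene levels was not tested.

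For a description of which genes varied most like the loop, 9194 other protein-coding genes with a mean of at least 5 CPM were ranked by Pearson r with the arm difference, over deviations from the group means in 6 libraries. Those deviations were dominated by knockouts 1 and 2, and 136 genes had r above 0.9 and 273 below -0.9, so a high rank is not rare. Among the highest were Tspan18 (r = 0.992), Tsc22d2, Trim56 and Nfkb2 (r = 0.987). The 5 lowest were Chkb (r = -0.998), Tspan3, Vps4a, Eif4e and Ccdc51 (r = -0.992). Eif4e, for example, was at 37.6, 52.1 and 43.2 CPM in knockouts 1, 2 and 3.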

How the data were processed

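Total RNA of 6 hearts was sequenced as paired-end TruSeq libraries, with technical runs of each mouse deposited as 1 column. HISAT2 2.0.5, SAMtools 1.5, featureCounts 1.5.1, DESeq2 1.16.1 and mm10 are named, per the submitters' processing notes, without roles or options. The authors deposited whole-number counts per gene for each library. The authors' deposited table gives a mean signal, a log2 fold change with its SE, a test score and p-values, raw and adjusted, for each gene. Gene models came from GENCODE M21 (GRCm38), in which 51596 of 51888 identifiers and all 10 members were found by identifier without version. Promoters came from RefSeq.

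Counts were tested with edgeR 4.0.16 (quasi-likelihood, TMM, filterByExpr with a minimum count of 10, no block) in R 4.3.3, all genes in 1 fit, calling at a Benjamini-Hochberg adjusted p under 0.05. SE is the fold change divided by the square root of F. Log2 CPM used a prior count of 2. The labels do not say from how many litters or cultures the mice came, so p-values measure the spread between these mice. Libraries of a group differed beyond sampling noise (chi-square per degree of freedom at least 8.93). The script was tested on simulated data.

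The members, lists and rules were chosen with earlier results of these data known. Named genes were the 10 members, Elac2, up to 4 called members of each list by adjusted p (1 by p where none was called), and the 5 genes most and least like the arm difference. A gene that this rule names is not reported here. Alternatives changed the scaling (RLE, library size only, or TMM computed without mitochondrial genes) and the filter, or used DESeq2 1.42.0, limma-voom (limma 3.58.1), a robust fit, a replicate block, an adjusted p under 0.01, each library left out and the authors' table. For the arm difference they were other scalings, a prior count of 0.5, medians and smaller arms. The deposited normalised values were not used here.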

Additional observations from a re-analysis of the deposited data

How the results depend on the processing

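The 10 clock genes were each refitted under 16 alternatives. Of these 160 values, 122 kept their direction and their side of the threshold, 17 gained a call and 16 lost one with the same direction, and 5 changed sign. The changes of sign were Arntl at -0.12 without knockout 1 and, with library size alone, Per1 at 0.26, Per2 at 0.20, Nr1d2 at 0.17 and Tef at 0.12. The median of all tested genes was 0.68 under that scaling, against -0.01 with TMM, and 8645 genes were called, 8093 higher and 552 lower, against 2671 and 2544 with TMM. Arntl was called at 0.86 without knockout 2. The count of clock genes called was 1 at an adjusted p under 0.01, 9 with no filter, and 1 to 7 without each library in turn. With no filter 5988 of all 26540 tested genes were called. The cause of the rise in clock genes with no filter was not tested. An adjusted p under 0.01 gave 3006 genes in all and 18 of the 58 other list genes, against 28. Leaving out 1 library gave 3694 to 5837 genes in all, 22 to 33 list genes and an arm difference of 0.25 to 1.55. The other alternatives moved the arm difference by less than 1 SD, to between 0.64 and 1.26. With library size alone the list genes split 34 higher and 6 lower.

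The replicate number as a block gave 4 clock genes, all lower (Npas2, Per3, Nr1d1 and Dbp), left Clock uncalled at 0.34 (adjusted p = 0.0895), and gave 4293 genes in all. The labels do not say that numbers pair the mice. Across genes, control and knockout libraries with one number deviated from their group means with r of -0.198, 0.085 and -0.087, so no pairing was used. Counts of 44 to 110 reads per knockout library for Npas2 limit its precision.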
